A study of Mus musculus with 8 samples.

Results

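The 8 CC chemokine genes Ccl2, Ccl3, Ccl4, Ccl5, Ccl6, Ccl7, Ccl9 and Ccl22 were followed in mouse macrophages given lipopolysaccharide (LPS) with or without an agent labelled RCMNs. They were taken by gene symbol from a table of 17518 genes, and all 8 had enough reads to be among the 11911 genes tested. MH-S is an established mouse alveolar macrophage line, so the libraries carry no variation between animals. Messenger RNA was sequenced in 8 libraries of 3 groups. Control cells received PBS (n = 3), LPS cells received LPS alone (n = 2), and LPS+RCMNs cells received both agents (n = 3). For the combined treatment the series text gives 100 ng/mL LPS and 1 µg/mL RCMNs. The sources used here spell out neither the abbreviation RCMNs, nor the LPS dose of the LPS group, nor the length of exposure. The labels number the replicates without saying whether they came from separate cultures, so the p-values measure the spread between these libraries, which may be technical.

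CC chemokines are small secreted proteins, named for adjacent cysteines near the N terminus, that attract leukocytes along a gradient held on cell-surface proteoglycans. They signal through G protein-coupled receptors, and most ligands share receptors: Ccl2 and Ccl7 bind Ccr2, several members bind Ccr1, and Ccl22 binds Ccr4. LPS, a component of the Gram-negative bacterial wall, engages Toll-like receptor 4 on macrophages, and chemokine genes are among its best-known transcriptional targets through NF-kB and interferon regulatory factors.

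Each library held between 18.6 M and 21.2 M estimated counts, over 13780 to 15266 genes. In each of the 3-library groups 1 library deviated, replicate 1 of control and replicate 2 of LPS+RCMNs, with a chi-square per degree of freedom of 35.9 to 48.0 against the other replicates, compared with 1.95 between the other control libraries and 2.86 between the other LPS+RCMNs libraries. Between the 2 LPS libraries the same value was 12.8, so these also differed more than those pairs did. The LPS libraries also differed from all others by gene length: in LPS versus control the median log2 difference was 1.25 over the 1192 shortest tested genes and -0.995 over the 1191 longest, and in LPS+RCMNs versus LPS it was -1.20 and 0.94. In LPS+RCMNs versus control the same medians were 0.01 and -0.07. Macrophage markers summed to 4923 to 8081 CPM (counts scaled to library size) in every library, with 11 or 12 of 12 listed genes counted. Siglecf and Marco, which mark alveolar macrophages, nevertheless did not exceed 0.186 and 1.32 CPM. Of the 11 tested markers, 9 were called higher in LPS+RCMNs than in LPS and 1 lower, against 29.8% and 29.5% of all tested genes. Erythroid markers summed to 4359 and 5623 CPM in the LPS libraries and to 0.759 to 34.2 CPM elsewhere; all 7 listed genes were counted in the LPS libraries, with Slc4a1 and Epb42 at or below 0.303 CPM. Neutrophil markers summed to 18.4 and 38.7 CPM in the LPS libraries and to 2.30 to 4.85 CPM elsewhere. Cxcr2 reached up to 33.4 CPM and S100a9 up to 2.67, while the granule and surface genes Elane, Mpo and Ly6g stayed at or below 0.182 CPM. The 3 neutrophil markers tested were all called higher in LPS versus control and lower in LPS+RCMNs versus LPS. Of all tested genes, 31.4% and 29.5% were called in those directions. Which of the 3 markers passed the low-count filter only through the LPS group was not examined. Their calls may therefore follow in part from that filter. The part of these features in the chemokine results was not tested, except that results were recomputed with the length trend and the 2 deviating libraries removed. In bulk RNA, fewer cells making a transcript and less transcript per cell cannot be told apart.

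Of the 8 genes, 7 lie within a stretch of chromosome 11 in the mm10 (GRCm38) build, in 2 groups. Ccl2 (gene ID 20296, chr11:82035577-82037452, plus strand) and Ccl7 (20306, chr11:82045712-82047525, plus strand) are neighbours, with Ccl12 beyond them. Ccl5 (20304, chr11:83525778-83530518), Ccl9 (20308, chr11:83572917-83578636), Ccl6 (20305, chr11:83587886-83593087) and Ccl3 (20302, chr11:83647843-83649378) follow on the minus strand, and Ccl4 (20303, chr11:83648624-83664683) on the plus strand. Ccl22 (20299) is at chr8:94745684-94751388 on the plus strand. The RefSeq spans of Ccl3 and Ccl4 overlap by 755 bases on opposite strands, Ccl5 lies within the long noncoding gene Gm32650, and Ccl6 within E230016K23Rik. In GENCODE M21 the spans of Ccl3 (chr11:83647844-83649355) and Ccl4 (chr11:83662584-83664683) do not overlap. Neither the annotation nor the strand use of the counting is given in the sources used here. Reads in such overlaps thus cannot be told apart by gene, and the values of these 4 chemokines carry that uncertainty.

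RefSeq promoter windows (GRCm38.p6) were held for 4 members: Ccl3, Ccl6, Ccl9 and Ccl22. The 150 bases upstream of the start are shown for the 3 that sit close together on chromosome 11, because Ccl9 and Ccl3 rose with LPS while their neighbour Ccl6 did not. All are written 5′ to 3′ on the minus strand, with matches to NF-kB, AP-1 and TATA motifs in capitals.
Ccl9 (chr11:83578637-83578786): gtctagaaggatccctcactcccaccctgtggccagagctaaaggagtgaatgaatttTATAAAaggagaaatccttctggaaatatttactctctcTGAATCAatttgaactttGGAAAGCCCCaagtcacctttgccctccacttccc
Ccl6 (chr11:83593088-83593237): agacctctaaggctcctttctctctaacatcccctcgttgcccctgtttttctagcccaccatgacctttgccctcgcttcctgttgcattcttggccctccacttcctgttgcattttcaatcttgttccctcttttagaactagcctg
Ccl3 (chr11:83649379-83649528): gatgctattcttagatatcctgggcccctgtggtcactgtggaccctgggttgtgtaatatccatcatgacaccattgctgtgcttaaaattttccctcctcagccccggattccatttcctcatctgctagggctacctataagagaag
Over the full 250 bases searched upstream of each start, Ccl9 held all 3 kinds of match: an NF-kB motif from 35 to 26 bases before the start, an AP-1 motif (TGANTCA) from 53 to 47 and a TATA motif (TATAAA, this strand only) from 92 to 87. Ccl3 held a PU.1 core (GAGGAA) on the opposite strand from 33 to 28 bases before the start. Ccl6 and Ccl22 held none of the motifs searched, which also included the interferon-stimulated response element (ISRE). Both strands were searched except for TATA, and the motifs did not overlap in these windows. Of all 32841 windows, 7.25% held the NF-kB motif, 6.75% AP-1, 7.59% TATA, 23.3% the PU.1 core and 2.98% the ISRE. A match describes letters in a window and does not show a factor bound there.

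Most of the chemokines were higher with LPS than in control, while the comparison of the treated groups depended on how gene length was handled. In LPS versus control 7 of the 8 genes rose and none fell (edgeR, adjusted p below 0.05), with a median log2 fold change of 3.42 over the 8 genes against -0.04 over all tested genes; 31.4% of all tested genes were called higher and 32.1% lower, 63.4% in all. In LPS+RCMNs versus LPS 4 of the 8 fell and none rose, with a median of -0.80 against 0.03 over all tested genes, where 29.5% were called lower and 29.8% higher, 59.3% in all. Ccl2, Ccl3, Ccl4, Ccl5 and Ccl7 belong to the 1192 shortest tested genes. Over those genes the median was 1.25 in LPS versus control and -1.20 in LPS+RCMNs versus LPS, further from 0 than the -0.80 of the members. In LPS+RCMNs versus control 3 of the 8 rose and none fell, with a median of 1.56 against -0.02, where 4.33% were called higher and 3.23% lower, 7.56% in all. Ccl22 is counted in these figures although it passed the low-count filter only through the LPS group, where it is high; of the other 7 genes, 6 rose with LPS and 3 fell between LPS and LPS+RCMNs. Each pair of comparisons shares a group of libraries, so these counts are not independent of each other. Without the 2 deviating libraries, 7 genes were higher and 1 lower in LPS versus control, against 38.4% and 36.1% of all tested genes. At the same setting 2 were higher and 5 lower in LPS+RCMNs versus LPS, against 36.5% and 36.9%, and in LPS+RCMNs versus control 7 were higher, against 14.7%. The last count was 6 without LPS+RCMNs replicate 2 alone and 6 by DESeq2, against 7.45% and 6.51% of all tested genes called higher. The 2 deviating libraries were picked by their deviation in these same data. The p-values and calls without either or both of them therefore do not measure the spread of all 8 libraries. For Ccl2 in LPS versus control, the standard error was 0.63 with all libraries and 0.076 without the 2. With the gene length trend removed, 2 genes were higher and 2 lower (Ccl9 and Ccl22) in LPS+RCMNs versus LPS, against 18.6% and 21.5% of all tested genes. With a surface on length and level removed, 1 was higher and 1 (Ccl22) lower, against 19.4% and 19%. With the length trend and the deviating libraries both removed, 5 were higher and 3 lower, against 31% and 33.3%. Ccl22, tested only through the LPS group, was among the lower genes at each of these settings and without the 2 deviating libraries.

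**Figure D1:**
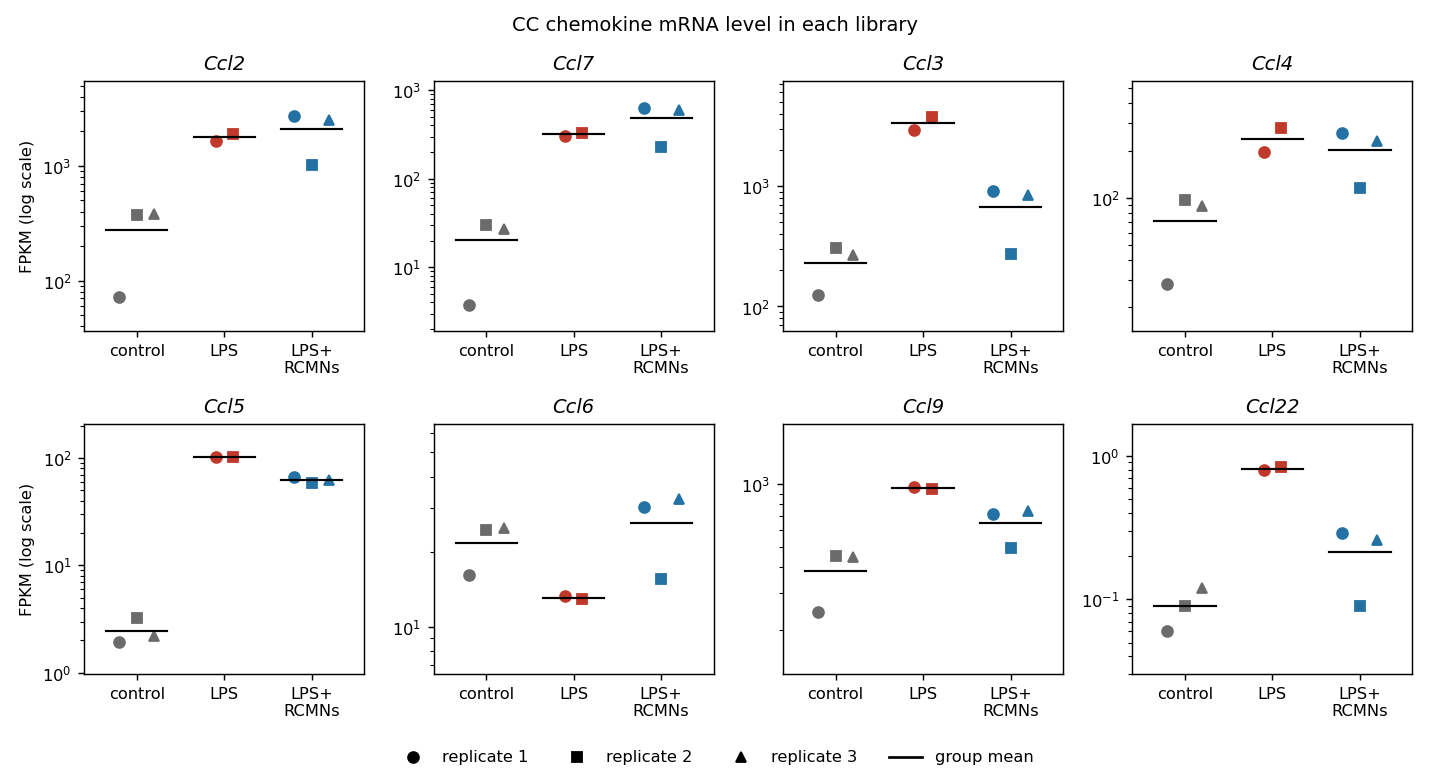
Level of each of the 8 CC chemokine genes in each library, in FPKM on a log axis, by group; marker shape gives the replicate number and the line the group mean. Control replicate 1 was the lowest library for 7 genes, LPS+RCMNs replicate 2 lay below the other LPS+RCMNs libraries for all 8, and Ccl3, Ccl5, Ccl9 and Ccl22 were highest in the LPS group.

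Ccl2 and Ccl7, the monocyte attractants that act through Ccr2, rose with LPS and with LPS+RCMNs, and neither passed the test between the treated groups. Ccl2 stood at 72.3, 373 and 378 FPKM (fragments scaled to gene length and library total) in the control libraries, at 1653 and 1891 with LPS, and at 2752, 1016 and 2511 with LPS+RCMNs. Every treated library exceeded every control, and the LPS+RCMNs libraries lay on both sides of the LPS libraries. Ccl2 rose 8.98-fold with LPS (log2 3.17 ± 0.63 SE, adjusted p = 0.00187) and 7.95-fold with LPS+RCMNs against control (log2 2.99 ± 0.60, adjusted p = 0.0186). Without LPS+RCMNs replicate 1 or replicate 3 the latter missed the threshold, with adjusted p = 0.0619 and 0.0666. Between LPS+RCMNs and LPS the Ccl2 difference was -0.17 ± 0.61 on the log2 scale (adjusted p = 0.823), smaller than its error.

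Ccl7 had 3.79, 30.0 and 26.8 FPKM in the control libraries, 306 and 332 with LPS, and 636, 231 and 602 with LPS+RCMNs. Its groups overlapped only between the treated conditions, where LPS+RCMNs replicate 2 fell below both LPS libraries and the other LPS+RCMNs libraries lay above them. Ccl7 rose 22.0-fold with LPS (log2 4.46 ± 0.69, adjusted p = 4.12e-04) and 25.3-fold with LPS+RCMNs against control (log2 4.66 ± 0.67, adjusted p = 0.00427). The direct difference between the treated groups was 0.20 ± 0.64 (adjusted p = 0.80). Without the 2 deviating libraries it was 0.52, higher with RCMNs (adjusted p = 4.64e-05). That p-value leaves out the spread of the 2 libraries, which were picked by their deviation in these data.

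Ccl3, a ligand of Ccr1 that draws monocytes and lymphocytes, rose with LPS and fell between LPS and LPS+RCMNs. It measured 125, 304 and 266 FPKM in the control libraries, 2920 and 3724 with LPS, and 909, 271 and 837 with LPS+RCMNs. Both LPS libraries were far above all others, and LPS+RCMNs replicate 2 lay within the control range. Ccl3 rose 20.0-fold with LPS (log2 4.32 ± 0.52, adjusted p = 9.02e-05) and fell 6.58-fold when RCMNs were present (log2 -2.72 ± 0.50, adjusted p = 0.00121). Against control, the LPS+RCMNs level was 1.60 ± 0.45 higher on the log2 scale, short of the threshold (adjusted p = 0.0664); without LPS+RCMNs replicate 2 it was 2.01 (adjusted p = 0.00818). With the gene length trend removed, the difference from LPS was -1.44 (adjusted p = 0.0505).

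Ccl4, a close relative of Ccl3, rose with LPS, and its difference between the treated groups did not pass the test. The control libraries gave 28.2, 96.2 and 88.6 FPKM, the LPS libraries 196 and 277, and the LPS+RCMNs libraries 259, 116 and 231. All treated libraries were above all controls. Ccl4 rose 4.42-fold with LPS (log2 2.15 ± 0.46, adjusted p = 0.00301), while the difference between LPS+RCMNs and LPS was -0.63 ± 0.46 (adjusted p = 0.26) and that between LPS+RCMNs and control 1.51 ± 0.43 (adjusted p = 0.0673). The length implied by its counts and FPKM varied from 622 to 691 bases among libraries, so the 2 scales are not exactly proportional for this gene.

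Ccl5, a ligand of Ccr1 and Ccr3 that recruits T cells and monocytes, had the largest fitted rise with LPS. The control libraries held 1.93, 3.27 and 2.22 FPKM, the LPS libraries 103 and 103, and the LPS+RCMNs libraries 67.2, 59.1 and 62.0. No groups overlapped. Ccl5 rose 58.1-fold with LPS (log2 5.86 ± 0.18, adjusted p = 1.68e-07), fell 2.19-fold between LPS and LPS+RCMNs (log2 -1.13 ± 0.14, adjusted p = 1.48e-04) and was 26.5-fold above control with both agents (log2 4.73 ± 0.18, adjusted p = 3.10e-06). In the 2 deviating libraries Ccl5 lay only 1.28-fold and 1.10-fold below its other replicates. Ccl5 is also the shortest member, and with the length trend removed its difference between LPS+RCMNs and LPS turned to 0.50, higher with RCMNs (adjusted p = 0.0408).

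Ccl6 and Ccl9 are rodent chemokines with an extended N terminus that act through Ccr1, and they differed from each other. Ccl6 was at 16.1, 24.4 and 24.8 FPKM in the control libraries, 13.3 and 12.9 with LPS, and 30.1, 15.5 and 32.4 with LPS+RCMNs. On this scale both LPS libraries were the lowest of all 8. The edgeR fit, which scales libraries by trimmed mean of M-values (TMM) and not by total, gave -0.25 ± 0.31 for LPS versus control (adjusted p = 0.504), 0.58 ± 0.31 for LPS+RCMNs versus LPS (adjusted p = 0.139) and 0.33 ± 0.27 for LPS+RCMNs versus control (adjusted p = 0.523). Ccl6 was called higher with RCMNs than with LPS alone once LPS+RCMNs replicate 2 was left out (0.82, adjusted p = 0.0100) or the length trend removed (1.24, adjusted p = 0.0178).

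Ccl9 was among the most abundant members in every group. It gave 244, 453 and 446 FPKM in the control libraries, 972 and 946 with LPS, and 718, 494 and 747 with LPS+RCMNs. The 3 groups did not overlap, with LPS+RCMNs between the others. Ccl9 rose 3.52-fold with LPS (log2 1.81 ± 0.27, adjusted p = 3.13e-04) and fell 1.96-fold between LPS and LPS+RCMNs (log2 -0.97 ± 0.27, adjusted p = 0.0114), while the difference from control, 0.84 ± 0.24, missed the threshold (adjusted p = 0.073). The fall missed the threshold without LPS replicate 1 (-0.93, adjusted p = 0.0676). Ccl9 is the longest member, with an implied length of 2959 bases near the middle of the tested genes, and removing the length trend left its difference at -1.06. The difference was -0.61 with the surface on length and level removed (adjusted p = 0.0861), -0.58 by limma on log2(FPKM + 1) (adjusted p = 0.106) and -0.083 by limma on log2(TPM + 1) (adjusted p = 0.805), none of them called. The limma values are to be read against medians of all tested genes of 0.27 by FPKM and 0.71 by TPM. The FPKM of Ccl9 was 15.2 to 18.6 times that of Ccl6 in the control libraries, 73.2 and 73.6 times with LPS and 23.1 to 31.9 times with LPS+RCMNs.

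Ccl22, the Ccr4 ligand that attracts regulatory and type 2 helper T cells, was scarcely present. The control libraries held 2, 3 and 4 counts (0.06, 0.09 and 0.12 FPKM), the LPS libraries 30 and 30 (0.80 and 0.83 FPKM), and the LPS+RCMNs libraries 10, 3 and 9 (0.29, 0.09 and 0.26 FPKM). The gene passed the low-count filter only through the LPS group, so its calls in both comparisons that include that group follow in part from the filter. The fit gave 3.68 ± 0.51 for LPS versus control (adjusted p = 2.03e-04), -2.32 ± 0.45 for LPS+RCMNs versus LPS (adjusted p = 0.00174) and 1.36 ± 0.56 for LPS+RCMNs versus control (adjusted p = 0.186). From the pooled counts the ratio of LPS to control was 13.3, with a 95% interval of 6.58 to 30.6 that covers counting error only. The same ratio was 0.199 (0.116 to 0.329) for LPS+RCMNs to LPS and 2.65 (1.17 to 6.54) for LPS+RCMNs to control.

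**Figure D2:**
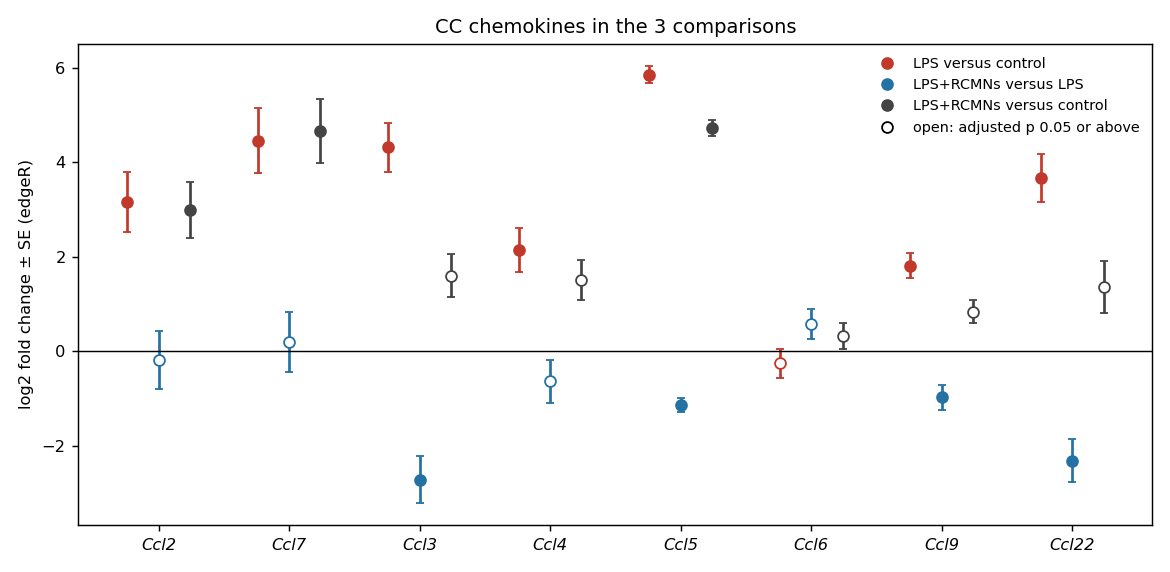
Log2 fold change and standard error of each CC chemokine in the 3 comparisons, from the edgeR fit of all 8 libraries; open points have an adjusted p of 0.05 or above. LPS versus control ran from -0.25 for Ccl6 to 5.86 for Ccl5, and LPS+RCMNs versus LPS from -2.72 for Ccl3 to 0.58 for Ccl6.

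The 2 deviating libraries were low for every member. Relative to its other replicates, control replicate 1 was 6.63-fold lower for Ccl7, 5.33-fold for Ccl2, 3.10-fold for Ccl4, 2.35-fold for Ccl3, 1.91-fold for Ccl9, 1.57-fold for Ccl6, 1.28-fold for Ccl5 and 1.13-fold for Ccl22. LPS+RCMNs replicate 2 was 3.24-fold lower for Ccl3, 2.69-fold for Ccl7, 2.6-fold for Ccl2, 2.11-fold for Ccl4, 2-fold for Ccl6, 1.49-fold for Ccl9, 1.47-fold for Ccl22 and 1.10-fold for Ccl5. Over all tested genes the deviation of these libraries ran from -0.70 to 0.62 and from -0.74 to 0.50 on the log2 scale between the 5th and 95th percentiles. Leaving aside the sparsely counted Ccl22, Ccl7, Ccl2 and Ccl3 had the widest standard errors and Ccl5 the narrowest.

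The comparison of the treated groups depended on gene length. Ccl5, Ccl4, Ccl3, Ccl7 and Ccl2 had implied lengths of 483, 628, 741, 752 and 757 bases, all at or under the 3.97th percentile of the tested genes. Ccl6, Ccl22 and Ccl9 had 1387, 1755 and 2959 bases. With the trend on length removed, LPS+RCMNs versus LPS gave 1.08 for Ccl2, 1.46 for Ccl7, 0.79 for Ccl4 and 0.50 for Ccl5, against -1.44 for Ccl3, -1.06 for Ccl9 and -1.90 for Ccl22. Removing the trend and the 2 deviating libraries together gave 1.44 for Ccl2, 1.83 for Ccl7, 1.10 for Ccl4, 0.60 for Ccl5 and 1.52 for Ccl6, all called higher with RCMNs. Under the same combined setting Ccl3 (-1.04), Ccl9 (-0.89) and Ccl22 (-1.53) were called lower. The calls at this setting leave out the spread of the 2 libraries, which were picked by their deviation in these data. Ccl3 and Ccl9 thus had a negative difference under each setting plotted, although that of Ccl9 by limma on TPM (-0.083) lay within its error of 0. Ccl22 was also negative at each. It passed the low-count filter only through the LPS group, so its values in both comparisons that include that group follow in part from the filter. The direction for Ccl2, Ccl4 and Ccl5 depended on the setting. In LPS versus control the same 7 members stayed positive with the length trend removed, at 0.73 for Ccl4, 1.92 for Ccl2 and Ccl9, 3.06 for Ccl3, 3.21 for Ccl7, 3.26 for Ccl22 and 4.23 for Ccl5, and Ccl4 no longer passed the threshold. Removing a surface on length and mean level also ended the call of Ccl2 in that comparison (1.53, adjusted p = 0.0814) and, in LPS+RCMNs versus LPS, those of Ccl3 (-1.11, adjusted p = 0.12), Ccl5 (0.30, adjusted p = 0.159) and Ccl9 (-0.61, adjusted p = 0.0861).

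**Figure D3:**
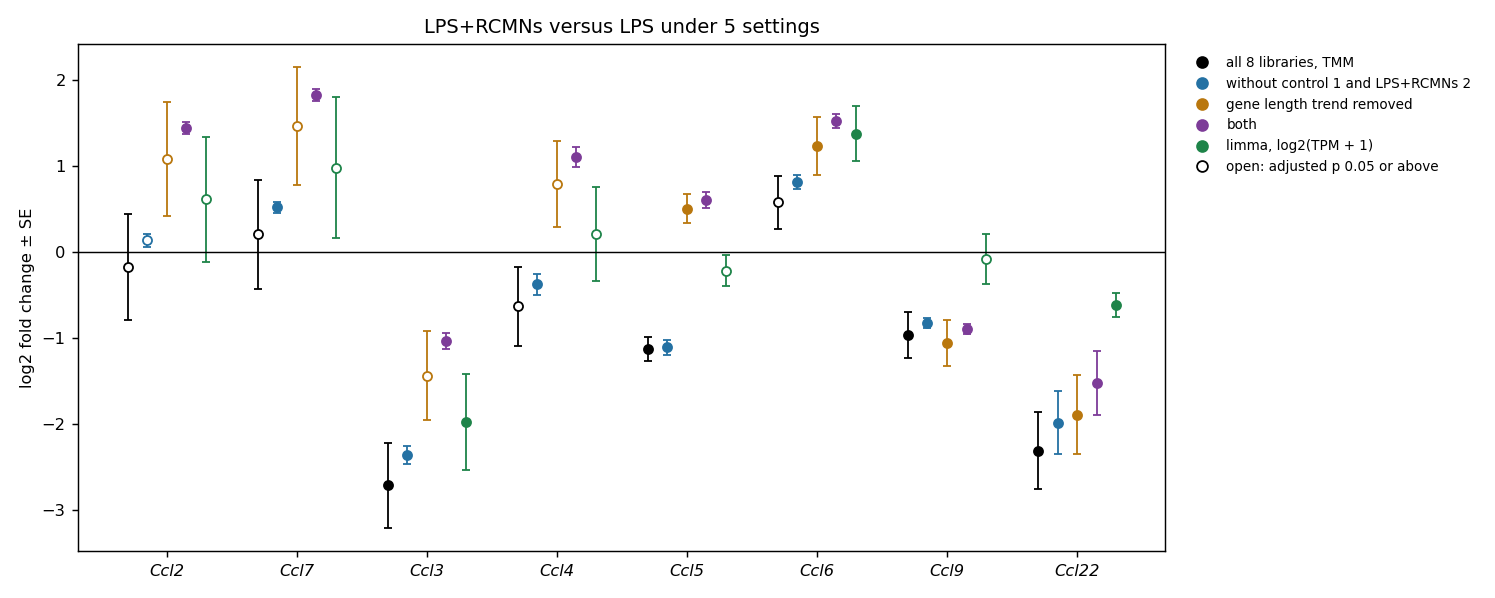
Log2 fold change and standard error of each CC chemokine in LPS+RCMNs versus LPS with all libraries, without the 2 deviating libraries, with the gene length trend removed, with both, and by limma on log2(TPM + 1); open points have an adjusted p of 0.05 or above. Ccl3 and Ccl22 lie below 0 throughout, Ccl9 reaches -0.083 by TPM with an error bar across 0, and Ccl5 moves from -1.13 to 0.50 with the length trend removed. Ccl22 passed the low-count filter only through the LPS group, so its position follows in part from the filter. By TPM the median of all tested genes was 0.71.

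Ratios between members of like length within a library do not depend on the scaling between libraries and only weakly on length. The FPKM of Ccl2 was 0.580, 1.23 and 1.42 times that of Ccl3 in the control libraries, 0.566 and 0.508 times with LPS, and 3.03, 3.76 and 2.999 times with LPS+RCMNs. The LPS+RCMNs libraries were above all others, the deviating library included, and both LPS libraries lay below all controls. For Ccl7 relative to Ccl3 the ratio was 0.0304, 0.0987 and 0.101 in the control libraries, 0.105 and 0.0892 with LPS, and 0.700, 0.853 and 0.719 with LPS+RCMNs. Ccl7 relative to Ccl2 was 0.0524 to 0.0804 in control, 0.176 and 0.185 with LPS and 0.227 to 0.240 with LPS+RCMNs. Ccl4 relative to Ccl3 was 0.227 to 0.334 in control, 0.0672 and 0.0745 with LPS, and 0.276 to 0.429 with LPS+RCMNs. These ratios were chosen after the values were seen and are given without a test.

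The make-up of the chemokine transcripts changed from group to group. Ccl9 led in the control libraries, with 40.4% of the summed FPKM of the 8 genes, ahead of Ccl2 (24.8%) and Ccl3 (23.5%), but the ranges of these 3 levels overlapped. Ccl3 led with LPS at 49.2%, ahead of Ccl2 at 26.4% and Ccl9 at 14.4%, and no neighbouring levels in the order Ccl3, Ccl2, Ccl9, Ccl7, Ccl4, Ccl5, Ccl6 and Ccl22 overlapped between the 2 libraries. Ccl2 led with LPS+RCMNs at 49.1%, above Ccl9 at 16.9%, Ccl3 at 15.3% and Ccl7 at 11.4%. In that group the ranges of Ccl3, Ccl9, Ccl7 and Ccl4 overlapped from neighbour to neighbour, and Ccl5, Ccl6 and Ccl22 followed without overlap. These shares set members of unlike length side by side: 2959 bases for Ccl9 against 741 for Ccl3 and 757 for Ccl2. In LPS versus control the median log2 difference was 1.25 over the 1192 shortest tested genes and -0.12 over those of 2824 to 3307 bases. The part of that trend in the shares was not tested. The 8 genes together made up 0.102% to 0.273% of all FPKM in the control libraries, 0.93% and 1.07% with LPS, and 1.14%, 0.455% and 1.06% with LPS+RCMNs.

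**Figure D4:**
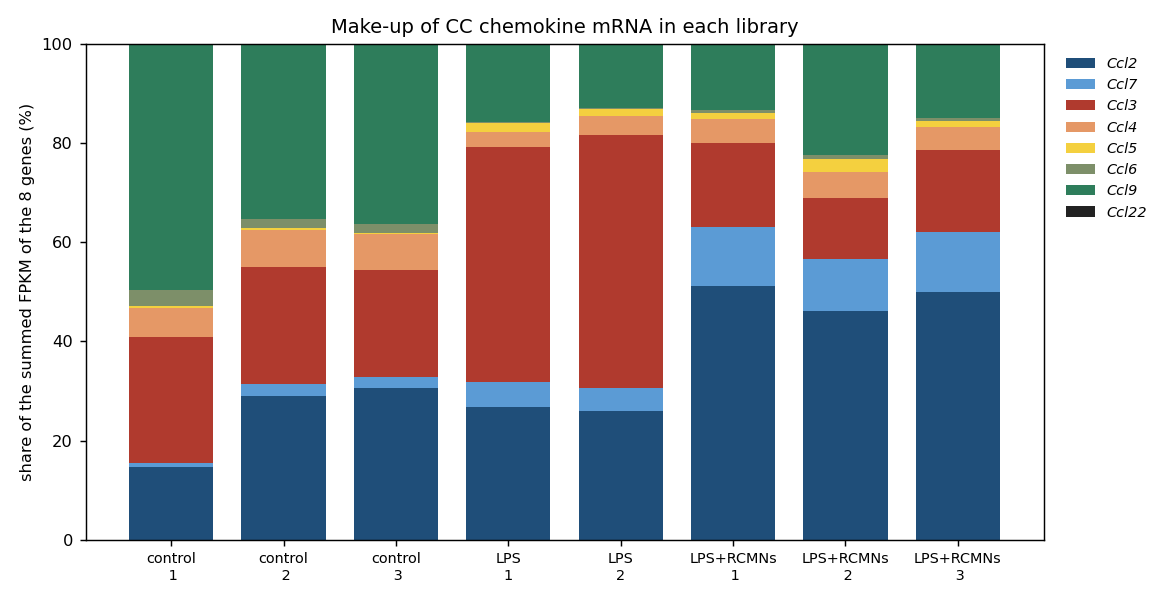
Share of each CC chemokine in the summed FPKM of the 8 genes, in percent, stacked for each library. Ccl3 takes 47.4% and 51.1% in the LPS libraries, and Ccl2 takes 51.2%, 46.1% and 49.99% in the LPS+RCMNs libraries. The members differ in length, and the part of the gene length trend of the LPS libraries was not tested.

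Among 13 other CC chemokines looked for, 9 were in the table and only Ccl12 and Ccl25 had enough reads to be tested. Ccl12, a Ccr2 ligand, gave 0.85, 3.13 and 2.93 FPKM in control, 21.2 and 21.8 with LPS, and 12.5, 18.8 and 14.7 with LPS+RCMNs. LPS+RCMNs replicate 2, low for the 8 genes, was the highest of its group for Ccl12. Ccl12 rose with LPS (log2 3.71 ± 0.40, adjusted p = 4.22e-05) and with LPS+RCMNs against control (2.81 ± 0.38, adjusted p = 0.00316), and fell by 0.90 on the log2 scale between LPS and LPS+RCMNs (adjusted p = 0.048). That last call was lost without control replicate 3, LPS replicate 1 or 2, or LPS+RCMNs replicate 1 or 3, and the difference turned to 0.71 with the length trend removed. Ccl25, a ligand of Ccr9, was 0.63 ± 0.24 higher with LPS than in control (adjusted p = 0.0461), a call lost in 6 of the 8 fits that each left out a library, and turned to -0.20 with the length trend removed. The 7 untested ligands did not exceed 0.54 FPKM in any library, the value of Ccl24.

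The receptors Ccr1 and Ccr2 were lower with LPS than in control and higher with LPS+RCMNs than with LPS. Of 13 receptor genes listed, 12 were in the table and 4 were tested: 2 fell and 1 rose in LPS versus control, 2 rose and none fell in LPS+RCMNs versus LPS, and none was called in LPS+RCMNs versus control, shares to be read against 31.4% and 32.1%, 29.8% and 29.5%, and 4.33% and 3.23% of all tested genes called higher and lower. Without LPS+RCMNs replicate 2, Ccr1 (0.72, adjusted p = 0.049) and Ccr2 (1.52, adjusted p = 0.0063) were called higher than in control, and Ccr2 also by DESeq2 (1.14, adjusted p = 0.0411). Ccr1, the shared receptor of Ccl3, Ccl5, Ccl6 and Ccl9, gave 29.6, 19.7 and 20.2 FPKM in control, 2.10 and 3.23 with LPS, and 36.1, 17.4 and 35.03 with LPS+RCMNs. Ccr1 fell with LPS (log2 -2.63 ± 0.36, adjusted p = 2.00e-04) and was higher with LPS+RCMNs than with LPS (3.06 ± 0.37, adjusted p = 1.01e-04). Both LPS libraries lay below all others for Ccr1.

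Ccr2, the receptor of Ccl2, Ccl7 and Ccl12, was at 1.44, 1.70 and 1.75 FPKM in control, 0.13 and 0.31 with LPS, and 4.16, 1.45 and 4.54 with LPS+RCMNs. Ccr2 fell with LPS (log2 -2.35 ± 0.57, adjusted p = 0.0054), a call lost without LPS replicate 1 (adjusted p = 0.0624), and rose between LPS and LPS+RCMNs (3.48 ± 0.57, adjusted p = 6.12e-04). Without LPS replicate 2 the same differences were -3.11 and 4.24. Removing the length trend left Ccr1 at -2.59 and 3.03 and Ccr2 at -2.04 and 3.19 in LPS versus control and LPS+RCMNs versus LPS. Ccrl2, an atypical receptor that binds chemerin, was 0.91 ± 0.28 higher with LPS than in control (adjusted p = 0.0194), a call lost without control replicate 2 or 3 or LPS replicate 1. Ccr3, a receptor of Ccl5 and Ccl7, was 2.27 ± 0.94 higher with LPS+RCMNs than with LPS (adjusted p = 0.0636). The 8 untested receptors stayed at or below 0.19 FPKM, among them Ccr4, the receptor of Ccl22, with at most 5 counts in a library.

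**Figure D5:**
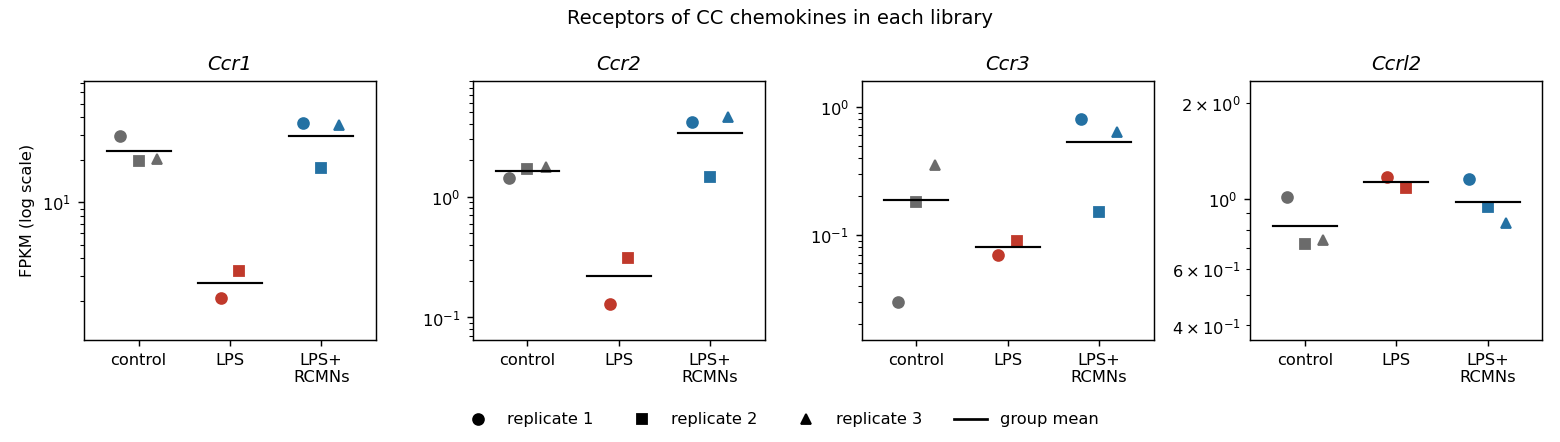
Level of 4 tested CC chemokine receptors in each library, in FPKM on a log axis, by group; marker shape gives the replicate number and the line the group mean. Ccr1 and Ccr2 were lowest in the LPS libraries, at 2.10 and 3.23, and 0.13 and 0.31 FPKM.

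Downstream of the receptors, 23 signalling genes were tested. In LPS versus control 6 were higher and 7 lower, in LPS+RCMNs versus LPS 8 higher and 7 lower, and in LPS+RCMNs versus control 2 higher and none lower. The shares among all tested genes were 31.4% and 32.1%, 29.8% and 29.5%, and 4.33% and 3.23% in that order. Rac2, a small GTPase of leukocyte migration, differed by 1.45, -0.59 and 0.86 in the 3 comparisons in that order, all called, although by TPM the second of these was 0.33. Dock2, the exchange factor that activates Rac, differed by -1.26 and 1.18 in LPS versus control and LPS+RCMNs versus LPS, and Arrb1, a beta-arrestin that ends receptor signalling, by -2.46 and 2.14. Rgs19, which speeds the shutdown of G proteins, differed by 0.67 and -0.84, and both calls were lost with the length trend removed. Pik3r5, a regulatory subunit of phosphoinositide 3-kinase gamma, differed by 0.61 and -0.28, with 0.33 against control (adjusted p = 0.0488). Both of these genes changed sign by TPM in each comparison that includes the LPS group. By TPM the median of all tested genes itself moved to -0.79 and 0.71 there. The TPM values of Rac2, Rgs19 and Pik3r5 are to be read against those medians. Of 7 proteoglycan genes, whose sulphated chains can hold chemokines, 6 were tested, with 2 higher and 2 lower in each comparison that includes the LPS group and 1 higher in LPS+RCMNs versus control. Srgn, the granule proteoglycan serglycin, differed by 1.93 and -1.15 (-0.25 and not called with the length trend removed) and Sdc4 by 1.13 and -1.06, whereas Sdc3 differed by -1.57 and 2.09 and Sdc1 by -0.38 and 0.70; Sdc3 was the gene higher against control (0.52, adjusted p = 0.0472). The calls of Pik3r5 and Sdc3 against control were each lost in 14 of 22 alternatives. The call of Sdc1 in LPS versus control was lost in 9 of 22, among them without control replicate 2 or 3 or LPS replicate 2.

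Across the 8 libraries, the members fell into patterns that their roles describe only in part. Ccl2 and Ccl7 varied together (Pearson r = 0.992 of log2 CPM), and the gene most like either among 7959 candidates was Fam49b (r = 0.995 for each), with Mmp12 second for Ccl7 (r = 0.994). Ccl3 was most like Gtf2b (r = 0.999) and Cd63 (r = 0.993), Ccl4 most like Derl2 (0.997) and Ifi27 (0.986), and Ccl5 most like Gk (0.995) and 1110008P14Rik (0.993). Ccl9 was most like Serpinb2 (0.997) and Srgn (0.996), and Ccl22 most like Ccl3 (0.990) and Igsf6 (0.988). Ccl6 followed none of the other members, with r between -0.01 and 0.40, and was most like Aopep (0.990) and Smc5 (0.973). These values are descriptions over 8 libraries that fall into 3 groups and include the 2 deviating ones.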

How the data were processed

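The deposited table holds, for each gene and library, an expected count (estimated count), an FPKM and a TPM made by the authors; per the file headers, 8 columns of normalised counts were also present and were not used, nor were 4 columns of a code no sample carries. The series' design text names FastQC for read quality, and the submitters' processing notes name the mm10 build; the sources used here give no aligner, counter or annotation. Of the counts above 0, 77.8% were not whole (tolerance 0.001), so counts were rounded. edgeR 4.0.16 (R 4.3.3) fitted all 8 libraries in 3 groups with filterByExpr, TMM and the quasi-likelihood test, and Benjamini-Hochberg adjustment over 11911 genes (call at adjusted p below 0.05). The common biological coefficient of variation was 14.5% on 5 residual degrees of freedom. With 18.6 M to 21.2 M counts a library, 3 counts correspond to 0.13 to 0.182 CPM. The fit was also run on simulated counts. These held neither the length trend nor the shared deviation of the 2 libraries, so that run does not bear on those features. Implied gene length was count over FPKM and library total. RefSeq names matched 17468 of 17518 gene IDs (99.7%).

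The named genes were all members, every tested other CC chemokine and receptor, the 2 called signalling and proteoglycan genes of smallest p in each direction per comparison, and the 2 genes most correlated with each member (mean FPKM of at least 5; log2 CPM with a prior count of 2). Marker lists were those of macrophages, erythroid cells, neutrophils, lymphocytes (0.559 to 1.58 CPM summed), epithelium (at most 0.424 CPM) and fibroblasts and endothelium (1.73 to 3.63 CPM). The members and lists were chosen with earlier results of these data known. Alternatives were fits of only the groups compared, a replicate block, leaving out libraries, other filters and scalings, DESeq2 1.42.0, limma 3.58.1 on log2(FPKM + 1) and log2(FPKM + 0.1), loess offsets (span 0.4) on length or on length and level, and a minimum log2 change of 1. Limma on log2(TPM + 1), and the length trend combined with leaving out the 2 deviating libraries, were added after seeing the data. A gene of the receptor list and a gene of the erythroid list are not reported here.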

Additional observations from a re-analysis of the deposited data

How the results depend on the processing

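Over 175 pairs of a member and an alternative in each comparison, 169 kept direction and call in LPS versus control (3 lost and 3 gained a call), 139 in LPS+RCMNs versus LPS (9 lost, 11 gained, 16 changed sign, called or not) and 159 in LPS+RCMNs versus control (2 lost, 14 gained). The cause of a change was not tested. In LPS versus control, Ccl6 was called lower without the 2 deviating libraries, with that and the length trend removed, and by limma on TPM. It was the 1 member called lower in each case. Of all tested genes, 36.1%, 30.1% and 68.6% were called lower at those settings, in that order. All genes called dropped from 7554 to 3619 with a minimum fold. In LPS+RCMNs versus LPS, the members called higher were 0 to 1 when 1 library was left out, 2 without both deviating libraries, 1 by limma on FPKM with either pseudocount or on TPM, 2 with the length trend removed, 1 with the surface on length and level removed and 5 without both libraries and the length trend. Of all tested genes, 23% to 32.9% were called higher with 1 library left out and 36.5% without both. By limma the share was 45.7% on FPKM + 1, 47% on FPKM + 0.1 and 66.7% on TPM. It was 18.6% with the length trend removed, 19.4% with the surface removed and 31% without both libraries and the length trend. Members called lower dropped from 4 to 2 by TPM, to 2 with the length trend removed and to 1 with the surface removed, and 3 to 4 were lower with 1 library left out. Ccl22, which passed the low-count filter only through the LPS group, was among them at each of these settings and was the 1 left with the surface removed. Of all tested genes, 8.08% were called lower by TPM, 21.5% with the length trend removed and 19% with the surface removed. With 1 library left out that share was 23.9% to 31.8%. All genes called were 7063, 4574 with the surface removed and 3162 with a minimum fold. In LPS+RCMNs versus control, 901 genes were called, 599 from only these groups, 309 to 1370 with 1 library left out, 3013 without both deviating libraries, 1379 by DESeq2, 314 with a minimum fold and 3122 without both libraries and the length trend. Members called higher were 2 to 6 with 1 library left out, 7 without both libraries (also with the length trend) and 6 by DESeq2. The shares of all tested genes called higher were 1.71% to 7.45%, 14.7% (15.1% with the length trend) and 6.51%, in that order. Correlations of deviations ran from -0.339 to 0.197 for libraries of the same replicate number and from -0.306 to 0.382 for the others. They cannot decide whether the numbers pair the libraries, since deviations in the 2-library LPS group mirror each other. With a replicate block 454 genes were called in LPS+RCMNs versus control. Signs changed in LPS+RCMNs versus LPS for Ccl2, which was 0.13 without both libraries, 0.115 by FPKM with either pseudocount, 0.61 by TPM, 1.08 with the length trend removed, 1.45 with the surface and 1.44 with both libraries and the length trend (-0.42 to 0.13 with 1 library left out), and for Ccl4 (0.21 by TPM, 0.79, 0.89 and 1.10 in the last 3 settings). Ccl7 ranged from -0.033 to 0.52 with 1 library left out. Ccl5 was 0.50 with the length trend, 0.30 with the surface and 0.60 with both libraries and the length trend removed; likewise Ccl12 (0.71, 0.39 and 0.60), Ccl25 (0.42, 0.19 and 0.64, and 0.43 by TPM), Ccrl2 (0.19), Rgs19 (0.083), Rac2 (0.33) and Pik3r5 (0.63) by TPM, and Pik3r5 by FPKM (0.14 and 0.15). In LPS versus control the sign changed for Ccl25 by TPM (-0.34), with the length trend removed (-0.20) and also without both libraries (-0.15), Ccrl2 by TPM (-0.028), Rgs19 by TPM (-0.35), with the surface removed (-0.11) and without both libraries and the length trend (-0.012), and Pik3r5 by TPM (-0.37); Ccr3 ranged from -1.19 to 0.17 with 1 library left out. In LPS+RCMNs versus control it changed for Dock2 (0.019 without both libraries and the length trend; -0.13 to 0.024 with 1 library left out) and Sdc4 (-0.0023 by TPM). TPM shifted the median of all genes to -0.79 and 0.71 in the comparisons with LPS, with 1020 higher and 8173 lower, and 7947 higher and 963 lower (416 and 674 in LPS+RCMNs versus control); FPKM + 1 shifted it to -0.33 and 0.27, with 2113 and 5925, and 5448 and 2117 (407 and 565). The values and sign changes by TPM and FPKM, such as the Ccl6 value of -1.17 by TPM in LPS versus control, are to be read against those medians. Depth limits Ccl22, whose libraries held 2 to 30 counts.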
